A study of Rattus norvegicus with 15 samples.

Results

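Kidneys undergoing acute rejection were compared with native kidneys in the rat. The comparison holds the 5 allogeneic grafts titled aTX 1 to 5 and the 5 native control kidneys titled ctr 1 to 5, chosen by these titles, which is 10 of the 15 arrays of the study. The other 5 arrays hold syngeneic grafts (sTX), which here only show where rejecting grafts differ from grafts without a strain barrier. By the series description and the methods, the allografts were left kidneys of male Lewis-Brown-Norway (LBN) rats placed in Lewis rats that had lost both own kidneys just before, taken on day 4, and the rats got no immunosuppression. The controls were untreated LBN kidneys. The sTX grafts were LBN kidneys in LBN rats, also without own kidneys. All rats were 10 to 12 weeks old. The source names disagree on strains, since they give Lewis donors with LBN recipients for aTX and Lewis rats on both sides for sTX. If they are right, grafts and controls also differ in the strain of the kidney, which cannot be told apart from grafting here. One label field of sTX 4 and sTX 5 calls them allogeneic, against their titles. The controls are described as the second kidneys of the donors, so a graft and a control may come from 1 rat, and the sources used here do not pair them. A graft on day 4 holds the donor's tissue and the recipient's leukocytes, and leukocytes of the donor that it still has.

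Acute rejection without drugs is driven by recipient T cells that recognise donor MHC molecules, either on donor cells or as peptides on the recipient's own antigen-presenting cells. Activated T cells secrete interferon gamma, which acts through JAK kinases and STAT factors on tubular, endothelial and myeloid cells and switches on chemokines, antigen presentation and guanylate-binding proteins. Cytotoxic lymphocytes kill with perforin and granzymes, monocytes enter and become macrophages, and the tubular epithelium, which carries most of the kidney's transport and metabolism, loses its differentiated functions.

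Each kidney was hybridised to 1 Affymetrix rat genome array, and values are MAS5 signal intensities on a linear scale. A probe set is the group of oligonucleotides that reads 1 transcript, and signals of different probe sets are not compared with each other. Each gene is given by 1 probe set, the one with the highest mean log2 signal over the 15 arrays. Signals under about 50 lie in the range where the arrays measure little, so folds that start there are uncertain in size. Levels are means ± SD with n = 5 kidneys per group, folds are ratios of geometric means, and log2 changes carry their SE. A gene rose or fell when its limma p, adjusted by Benjamini and Hochberg over 31042 probe sets, was below 0.05.

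The comparison reached a large part of the array. Of 31042 probe sets 6268 were higher in the allografts, which is 20.2%, and 6890 were lower, which is 22.2%. Over the 14217 genes with a symbol, 3938 rose and 3932 fell, 27.7% and 27.7%, and these shares are the background for every list below. The median change over all genes was -0.03 on the log2 scale. Over all genes, rises and falls were alike in number but not in size. At 4-fold or more 760 genes rose and 279 fell, at 8-fold or more 370 rose and 45 fell, and at 16-fold or more 144 rose and 10 fell. The median called rise was 1.78-fold and the median called fall 1.70-fold, so most called changes were small. Among the 5970 genes whose mean signal reached 100, 2048 rose and 2428 fell. By at least 2-fold 568 of them rose and 668 fell, and by at least 8-fold 95 rose and 9 fell. Their median called rise was 1.54-fold and their median called fall 1.58-fold. All 5 allografts lay above all 5 controls in 3295 genes and below them in 3165. For 2981 genes, 21%, the 95% interval of the log2 change lay within 0.5 of 0, and 2138 of these were among the 5970 genes whose mean signal reached 100.

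**Figure D1:**
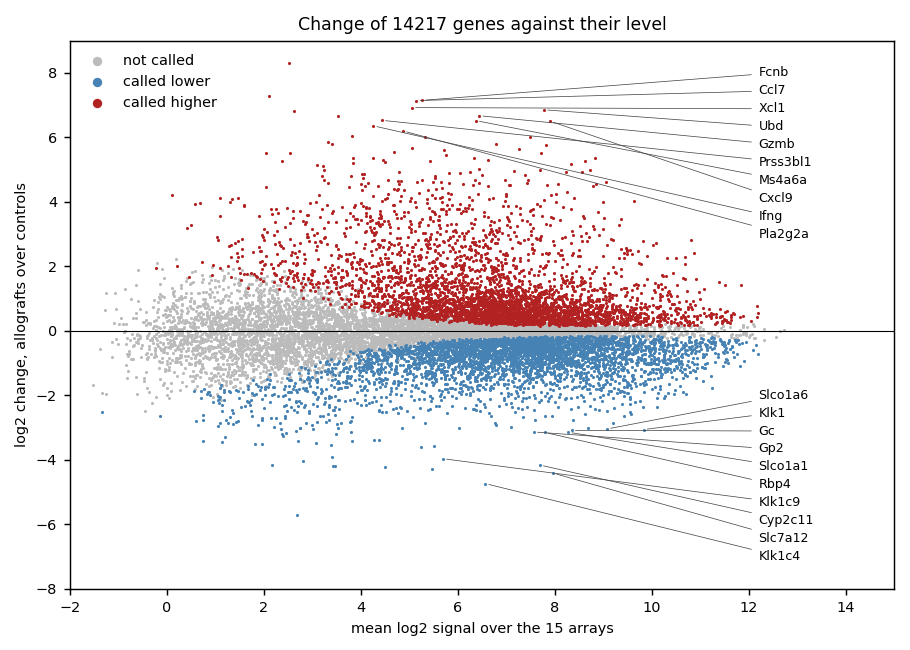
Log2 change of the allografts over the controls (vertical axis) against the mean log2 signal over the 15 arrays (horizontal axis) for 14217 genes, 1 point per gene. Red points were called higher, blue points called lower and grey points not called, and labels mark the 10 largest rises and the 10 largest falls of the rule. The cloud reaches further up than down: 370 genes rose at least 8-fold and 45 fell at least 8-fold.

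Arrays fell into 2 runs by the hybridization times in the instrument records, called wash runs here. All controls and aTX 2, 3 and 4 were in run 1, and aTX 1 and 5 were in run 2 with the sTX arrays. With the run as a block 5601 probe sets were higher and 6346 lower, and within run 1 the counts were 5303 and 6029. As run 2 holds no control, both settings compare the controls with aTX 2, 3 and 4 only and are not separate checks. Within run 1 controls 1 to 4 were on station 1 while control 5 and the 3 allografts were on station 2, so the station is nearly confounded with the groups. With run and station as a block, control 5 is the only control that shares a block with allografts, aTX 2, 3 and 4. Each change in that setting, here and in every passage below, therefore rests on 1 control kidney. Calls lost and counts that drop with it cannot show the part of the station. RNA quality also moved with the groups. The ratio of 3' to 5' signal was 1.04 ± 0.025 in allografts and 1.17 ± 0.0468 in controls for the Gapdh control probe sets, and 1.23 ± 0.0578 against 1.74 ± 0.168 for actin. The part of these in the results was not tested. Control 3 stood apart from the other controls. It was the highest control for most interferon-inducible and immediate early genes and the lowest for most proximal tubule markers, and the values of these lists are given with and without it.

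The 10 largest rises among genes whose geometric mean reached 200 in the allografts were Fcnb, Ccl7, Xcl1, Ubd, Gzmb, Prss3bl1, Ms4a6a, Cxcl9, Ifng and Pla2g2a. Fcnb encodes a ficolin, a sugar-binding starter of the lectin pathway of complement made by myeloid cells. Its signal was 1.8, 1.6, 29.3, 12.8 and 2.1 in controls 1 to 5 and 676, 817, 762, 545 and 570.1 in allografts 1 to 5. Controls were at background throughout, so its rise of 7.15 ± 0.69 on the log2 scale (adjusted p = 3.8e-08) starts from a level that the array does not resolve. Pla2g2a, a secreted phospholipase of inflamed tissue, read 7.6, 0.90, 19, 14 and 2.5 in controls and 420.1, 479, 504, 324 and 297 in allografts, again with all controls at background. Prss3bl1, a trypsin-like gene, rose from 4.8 ± 4.57 to 316 ± 37.7.

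T cell markers rose nearly without exception: 18 of 19 measured members rose, 0 fell, and the median change was 4.10 against -0.03 over all genes. Cd3d, a signalling chain beside the T cell receptor, read 2.7, 3.4, 17.9, 15.2 and 10.6 in the controls and 179.5, 214, 209, 330.3 and 260.4 in the allografts. Every allograft lay above every control, with a rise of 4.93 ± 0.49 (adjusted p = 5.9e-08). The coreceptor genes Cd8a and Cd8b rose 50.9-fold and 29-fold, whereas Cd4 rose 1.74-fold, from 36.3 ± 9.72 to 61.7 ± 7.41. The call of Cd4 was lost with run and station as a block, at 0.31 on the log2 scale. Rat macrophages carry Cd4 as well as T cells. Lck, the kinase bound to both coreceptors, read 49.6 ± 10.8 in controls and 574 ± 85.8 in allografts. Cd28 was the single member that was not called, at 9.7 ± 5.42 and 17.9 ± 5.42. Against sTX 17 of 19 members were higher in aTX, where 19.8% of all genes were higher and 28.4% lower. Relative to the mean of the controls, the mean log2 level of the list was 3.35, 3.61, 3.49, 3.88 and 3.66 in allografts 1 to 5, and the controls spread from -0.42 to 0.30. The arrays of sTX were all in run 2. Of the 243 genes named here, which were chosen with earlier results of these data known, 207 differed between aTX and sTX. Of these, 193 did so with the run as a block and 192 within run 2, none in the opposite direction. Both settings compare sTX with aTX 1 and 5 only. The level of the T cell list lay between the groups in the sTX grafts, at 0.35 to 1.03.

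Of the cytotoxic lymphocyte markers 15 of 19 rose, and 8 reached a geometric mean of 100 in the allografts while 0 had it in the controls. The other 4 were not called, and the lowest change among them was -1.14 on the log2 scale. Ifng, the gene of interferon gamma, read 3.0, 1.9, 7.5, 7.4 and 1.9 in the controls and 245, 376, 337, 295 and 244 in the allografts. All 5 allografts were far above background and all 5 controls at it, a rise of 6.36 ± 0.42 (adjusted p = 1.1e-10). The sTX grafts stayed at 7.58 ± 4.75, and aTX were 44.5-fold above them (adjusted p = 2.3e-09). Xcl1, a chemokine of activated CD8 T cells and NK cells that attracts cross-presenting dendritic cells, read 5.9, 1.9, 4.2, 4.8 and 11.9 in controls and 487, 629.9, 623, 645 and 579 in allografts. Allograft 1 had the lowest value. Gzmb, the gene of granzyme B, rose 102-fold. Cst7, an inhibitor of the proteases that activate granzymes, rose from 26.3 ± 7.63 to 729 ± 79.4.

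Myeloid markers followed. Of 21 monocyte and macrophage markers 20 rose, with a median of 3.59. Ms4a7, a membrane protein of macrophages, read 12.9, 14.7, 45.6, 26.2 and 24.9 in controls and 912, 838, 824, 971 and 884 in allografts, a rise of 5.30 ± 0.28 (adjusted p = 4.1e-12). Ccr2, the receptor that brings classical monocytes into tissue, rose from 4.28 ± 2.3 to 161 ± 20.4, and Itgam from 2.66 ± 1.94 to 145 ± 15.9. The smallest changes in the list were those of Cx3cr1 and Adgre1. Cx3cr1 was not called at 17.1 ± 4.08 in controls and 21.9 ± 4.7 in allografts, and Adgre1 rose 1.84-fold. Both were lower in aTX than in sTX, 2.05-fold (adjusted p = 2.6e-04) and 1.4-fold (adjusted p = 0.003), and they were the 2 members of the list for which this was so. The list level was 3.65, 3.68, 3.68, 3.73 and 3.56 in allografts 1 to 5, a narrower spread than the -0.25 to 0.25 of the controls.

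Among dendritic cell markers 7 of 9 rose, among them the lectins Clec10a (13.6-fold) and Clec4a (10.8-fold) and the integrin Itgax (4.1-fold). The other 2 were not called, the lower of them at -0.24 on the log2 scale. Of the 7 neutrophil markers 5 rose, of which 4 separated all allografts from all controls. S100a9 rose from 7.28 ± 4.54 to 146 ± 64.9 and the receptor Csf3r from 8.82 ± 2.73 to 153 ± 9.01. The level of this list was 3.06, 2.97, 2.47, 2.49 and 2.52 in allografts 1 to 5, so the first 2 lay above the other 3. B and plasma cell markers moved less, with 5 of 14 higher and 2 lower, and the defining Ms4a1 (12.9 ± 4.24 in allografts) and Cd79b (5.96 ± 4.99) were near 0 and not called. Blnk, an adaptor of the B cell receptor that macrophages also use, rose 1.47-fold. Prdm1, the regulator of plasma cells and of effector T cells, rose from 20.8 ± 4.12 to 95.8 ± 18.1. Mast cell markers were near background, with 3 of 8 higher and 0 at a geometric mean of 100 or more in allografts. Markers of red cells and platelets gave 0 rises and 3 falls among 8, and Hbb, a globin gene of red cells, was not called at 2324 ± 1033 and 1544 ± 330.2. In whole-kidney RNA more cells of a type and more RNA per cell cannot be told apart, and the same holds for fewer cells and less RNA.

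**Figure D2:**
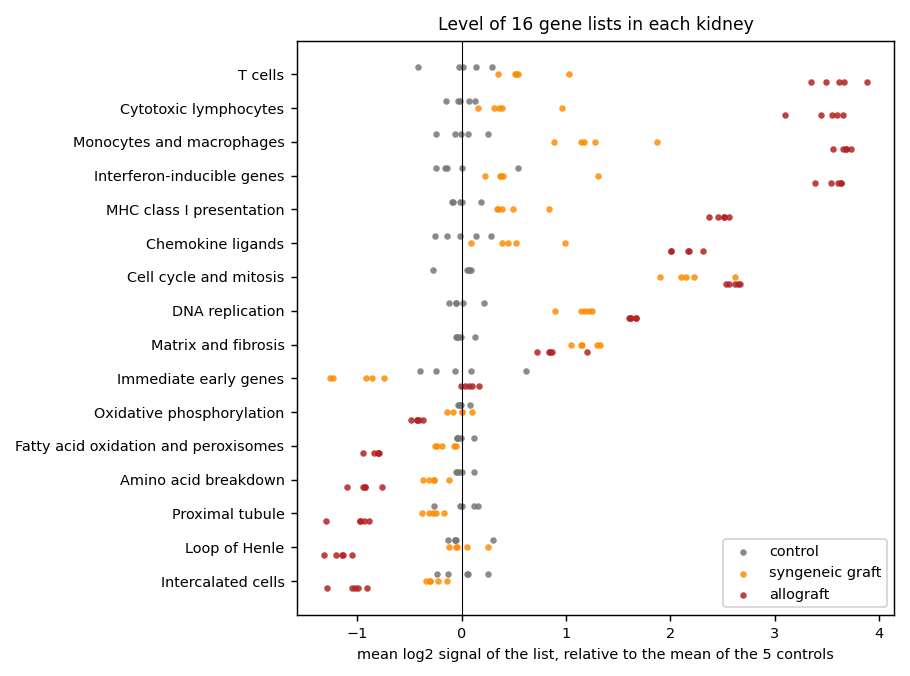
Level of 16 gene lists in each kidney: the mean log2 signal of the list's genes minus the mean of the 5 controls, with 1 point per kidney for controls (grey), syngeneic grafts (orange) and allografts (red). Immune lists lie far to the right in all 5 allografts and tubular lists to the left. For cell cycle genes only the first syngeneic graft reaches the range of the allografts. For matrix genes the syngeneic grafts lie above all allografts but the first.

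Chemokines and their receptors rose in part. Of 30 chemokine genes 19 rose and 2 fell. The ligands of Cxcr3, a receptor of effector T cells, were among the highest. Cxcl9 read 23.5, 13.3, 195, 34.9 and 28.4 in controls and 3316, 3785, 3586, 3177 and 2624 in allografts, a rise of 6.51 ± 0.53 (adjusted p = 3.2e-09), and Cxcr3 itself rose from 17.4 ± 3.66 to 193 ± 36.7. Ccl7, a ligand of Ccr2, reached 712 ± 81.6. Ccl19, which guides naive T cells and mature dendritic cells, rose from 45.6 ± 14.9 to 1128 ± 202, and Cxcl13, which guides B cells, from 87.7 ± 13.2 to 807 ± 213. The ligand Cxcl12 was not called, at 929.5 ± 108 and 874 ± 112, while its scavenging receptor Ackr3 fell 1.89-fold. Of 16 receptors 8 rose and 2 fell.

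Of 33 cytokine genes 20 rose and 1 fell. Tnf read 1.9, 4.3, 5.8, 2.6 and 1.1 in controls and 95.5, 146, 118, 93 and 105 in allografts, and Il1b 21.4, 18, 45, 20.7 and 18 and 329.9, 384, 366, 358 and 323. Both were higher in every allograft than in any control, with rises of 5.37 ± 0.42 and 3.93 ± 0.20 (adjusted p = 1.6e-09 and 2.4e-12). Il18, another substrate of caspase 1, rose 8.56-fold and Il15, a survival factor of cytotoxic cells, 2.46-fold. Il33, an alarmin of stromal and endothelial cells, was the member that fell, from 746 ± 77.6 to 370.4 ± 53. The T helper cytokines Il4, Il5 and Il13 stayed near background in both groups, at 2.18 ± 1.05, 3.86 ± 1.23 and 6.16 ± 3.78 in allografts, and were not called. Type I interferon Ifnb1 was likewise at 1.0 ± 0.686 and 1.12 ± 0.884. Of 27 cytokine receptor genes 23 rose, led by the shared gamma chain Il2rg (16.8-fold) and the beta chain Il2rb (10-fold) of the IL-2 and IL-15 receptors.

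Interferon-inducible genes rose almost without exception: 42 of 44 measured members rose and none fell, with a median of 3.47 and 39 members with a geometric mean that reached 100 in the allografts. All of the 42 were also higher than in sTX. Irgm, an interferon-inducible GTPase, read 37.3, 28.2, 95.3, 34.7 and 48.6 in controls and 2070, 2167, 2156, 1893 and 1831 in allografts, a rise of 5.51 ± 0.30 (adjusted p = 6.4e-12). Ubd, a ubiquitin-like modifier induced by interferon gamma and TNF, rose from 53.3 ± 77.7 to 3455 ± 666. Irf1, a transcription factor that interferon induces, read 65.6, 72.2, 177, 73 and 89.6 in controls and 2624, 2974, 2814, 2629 and 2490 in allografts. The groups were far apart, a rise of 4.93 ± 0.24 (adjusted p = 1.7e-12), and control 3 lay above the other 4 controls. Isg15, a ubiquitin-like protein that type I interferon also induces, rose from 77.7 ± 30 to 1704 ± 210.3 and the antiviral GTPase Mx1 from 60.2 ± 6.9 to 896 ± 145. The 2 members that were not called were Nos2, the inducible nitric oxide synthase, at 9.64 ± 4.83 and 10.8 ± 5.28, and Ifit1 at 4.62 ± 2.98 and 7.68 ± 4.98.

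The controls were not alike in this list. Its mean log2 level, relative to the mean of the controls, was -0.16, -0.25, 0.54, 0.01 and -0.14 in controls 1 to 5 and 3.63, 3.64, 3.60, 3.38 and 3.54 in allografts 1 to 5, while sTX spread from 0.23 to 1.31. Control 3 was the highest control in 28 of the 44 genes. For Gbp2, an interferon-induced GTPase, the controls read 68.5, 66.5, 288, 85.5 and 86.2, with control 3 highest, and the allografts 4034, 4658, 4319, 3815 and 3659. Cxcl10 read 60, 55.8, 295, 92.3 and 87.1 in controls and 3759, 4377, 3991, 3392 and 3164 in allografts, with the same control on top. Among the sTX grafts the first stood out in the same way, with 589.8, 201, 125, 127 and 90.2 for Cxcl10. Without control 3 the list still had 42 rises and 0 falls, with a median of 3.56.

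A pair of short motifs of interferon signalling were looked for in the promoters of these genes. A GAS element, a site of the interferon gamma response, was searched as TTCNNNGAA, and the core of an interferon-stimulated response element (ISRE), to which IRF factors bind, as GAAANNGAA, both on either strand, and matches of the 2 may overlap. The promoters run from 250 bases before to 50 after the start of transcription in RefSeq's GRCr8 build, and 33 of the 42 genes that rose have one in the table. A GAS element was found in 42.4% of the 33 and in 8.87% of 33469 promoters of all genes, and an ISRE core in 54.5% and 9.71%. Either motif was in 24 of 33, which is 72.7%, against 17.5% of all promoters. This is a description of letters and not of bound sites. 5 promoters are shown because their genes stand for the chemokine, GTPase, transcription factor and peptide transporter arms of the response. Each is written 5' to 3' on the strand of its gene, with the bases of every match in capitals. The same windows of Ubd, Psmb9 and Mx1 hold neither motif.
Irf1 (chr10:38417685-38417984, plus strand, 1 GAS match): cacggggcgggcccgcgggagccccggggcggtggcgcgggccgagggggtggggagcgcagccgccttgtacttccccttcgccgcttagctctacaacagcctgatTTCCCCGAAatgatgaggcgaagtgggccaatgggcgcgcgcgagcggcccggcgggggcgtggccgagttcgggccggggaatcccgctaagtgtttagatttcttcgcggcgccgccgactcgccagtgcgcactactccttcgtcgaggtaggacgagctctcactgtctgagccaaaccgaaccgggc
Irgm (chr10:33742529-33742828, minus strand, 1 GAS and 1 ISRE match): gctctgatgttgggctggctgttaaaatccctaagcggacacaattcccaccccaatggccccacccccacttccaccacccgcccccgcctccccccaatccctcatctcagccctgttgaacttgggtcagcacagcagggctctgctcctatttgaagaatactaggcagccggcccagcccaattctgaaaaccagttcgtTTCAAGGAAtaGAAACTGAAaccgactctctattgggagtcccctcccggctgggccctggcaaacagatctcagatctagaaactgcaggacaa
Gbp2 (chr2:234005477-234005776, plus strand, 1 ISRE match): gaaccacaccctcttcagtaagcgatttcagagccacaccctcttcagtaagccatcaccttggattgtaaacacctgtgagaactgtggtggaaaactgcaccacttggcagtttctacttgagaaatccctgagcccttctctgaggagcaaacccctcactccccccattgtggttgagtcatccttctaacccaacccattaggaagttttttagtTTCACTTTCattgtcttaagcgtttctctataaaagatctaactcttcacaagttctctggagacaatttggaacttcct
Cxcl9 (chr14:16006916-16007215, plus strand, 1 GAS match): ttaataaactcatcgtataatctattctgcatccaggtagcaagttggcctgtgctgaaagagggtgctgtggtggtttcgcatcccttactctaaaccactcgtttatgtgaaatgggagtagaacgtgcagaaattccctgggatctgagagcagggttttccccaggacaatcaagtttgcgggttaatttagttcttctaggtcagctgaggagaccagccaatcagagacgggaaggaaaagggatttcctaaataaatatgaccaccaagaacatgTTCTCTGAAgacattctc
Tap1 (chr20:4668494-4668793, minus strand, 1 ISRE match): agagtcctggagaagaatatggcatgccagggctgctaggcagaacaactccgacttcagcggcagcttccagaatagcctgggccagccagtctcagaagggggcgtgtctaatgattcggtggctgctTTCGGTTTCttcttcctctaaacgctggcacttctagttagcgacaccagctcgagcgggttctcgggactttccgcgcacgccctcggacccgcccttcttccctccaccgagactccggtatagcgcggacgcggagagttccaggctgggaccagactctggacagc

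Antigen presentation rose in both classes. Rat MHC genes (RT1) are near-identical copies that differ between strains, so single RT1 probe sets are uncertain, since they can read several genes and one strain's allele better than the other's. Of 24 class I genes 23 rose and 0 fell. Genes outside the RT1 family led. Psmb9, a catalytic subunit of the immunoproteasome, which cuts proteins into peptides for class I, read 112, 124, 270.5, 119 and 125 in controls and 3397, 3972, 3698, 3490.4 and 2926 in allografts, a rise of 4.62 ± 0.24 (adjusted p = 3.3e-12). Its partner Psmb8 rose 30.3-fold and the peptide transporter Tap1, whose promoter is shown above, 24-fold. The light chain B2m, high in every kidney, rose 1.47-fold, from 3983 ± 366 to 5902 ± 1063, and the chaperone Canx was not called at 1469.6 ± 114 and 1591 ± 118. Of 18 class II genes 16 rose. Ciita, the master regulator of class II transcription, read 23.8, 18.9, 30.5, 22.1 and 22.5 in controls and 585, 558, 509, 512 and 532 in allografts, a rise of 4.53 ± 0.20 (adjusted p = 4.5e-13). The invariant chain Cd74 rose 2.84-fold, the costimulator Cd40 17.7-fold and Marchf1, a ligase that removes class II from the surface, 24.5-fold.

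Genes that restrain immune cells rose in the same kidneys. Of 27 such genes 19 rose and 3 fell. Socs1, which blocks JAK kinases in a feedback loop of interferon signalling, read 15.5, 4.2, 18.6, 2.5 and 4.1 in controls, 24.2, 3.6, 8.9, 6.6 and 1.9 in syngeneic grafts and 286, 242, 232, 251 and 283 in allografts, so the allografts stood apart from both other groups. It was 41.1-fold higher in aTX than in sTX (adjusted p = 2.5e-07). A second probe set of Socs1 was not called. Ido1, which breaks down tryptophan, rose from 4.4 ± 3.31 to 114 ± 12.8, and the inhibitory receptor Lilrb4 from 39 ± 4.49 to 456 ± 107. Nfkbia, the inhibitor of NF-kB, was not called at 608 ± 86.1 and 704 ± 29.8, and Nt5e, a producer of adenosine on tubular and other cells, fell 2.73-fold.

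Signalling genes of leukocytes rose as a set. Of 26 genes of antigen receptor and ITAM signalling 24 rose, among them Ptprc, the pan-leukocyte phosphatase CD45 (14.7-fold), the adaptor Lcp2 (19.2-fold) and the myeloid kinase Fgr (17.1-fold). Of 18 genes of Toll-like receptors and the inflammasome 17 rose, with Tlr2 13.9-fold and its co-receptor Cd14 13.4-fold higher. Of 17 NF-kB genes 13 rose, such as Bcl3 (8.53-fold) and Ripk2 (8.15-fold), and of 18 JAK and STAT genes 14 rose, such as Stat2 (6.46-fold) and Socs3 (7.26-fold). NADPH oxidases moved in opposite directions. Cybb, the catalytic subunit of phagocytes, read 253, 232, 259.7, 258 and 215 in controls and 2160.2, 2646, 2634, 2584 and 1924 in allografts, and its partners Ncf4 and Rac2 rose 12.6-fold and 8.5-fold. Nox4, the oxidase of the renal tubule, read 445, 402, 195, 504 and 510.2 in controls and 39.9, 92.6, 85.9, 86.3 and 64.9 in allografts, so that all allografts lay below all controls, and control 3 had the lowest control value. Nox4 fell by 2.46 ± 0.24 (adjusted p = 3.3e-08).

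Of 33 genes of cell death 23 rose and 4 fell. The list holds inhibitors as well as effectors. Bcl2a1 and Birc3, which keep cells alive, rose 55.3-fold and 17.7-fold. Ripk3, the kinase of necroptosis, read 31.9, 27.1, 40.6, 27.4 and 32.1 in controls and 572, 562, 577, 505 and 516 in allografts, a rise of 4.12 ± 0.16 (adjusted p = 6.5e-14). The death receptor Fas rose 10.1-fold, Casp8 5.3-fold and Casp1 12.5-fold. Of the mitochondrial route, Casp9 was 1.36-fold higher (not called with the mean of all its probe sets) and Diablo was not called at 288 ± 24.4 and 276 ± 6.49.

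Most complement genes rose. Of 24 components 18 rose and 4 fell. C3 read 73.1, 64.8, 112, 83.1 and 78.9 in controls and 1765, 2009, 2014, 985 and 1197 in allografts, a rise of 4.24 ± 0.23 (adjusted p = 7.3e-12), and C1r and C1s rose 5.58-fold and 5.38-fold. The falls were Mbl1, C8g, C8b and Masp2 (Masp2 lost its call with run and station as a block and its direction with the mean of all its probe sets), of which Mbl1, a mannose-binding lectin, fell 2.96-fold. Of 11 regulators 6 rose and 3 fell. Serping1, the C1 inhibitor, rose from 1042 ± 36 to 3206 ± 339. Clu rose from 544 ± 40.5 to 2977 ± 724 but was higher still in sTX, at 4245 ± 668. C4bpa encodes a cofactor in the breakdown of complement C4b. It read 0.50, 0.30, 1.0, 0.30 and 0.50 in controls and 87.3, 213, 248, 96.8 and 162 in allografts. Its fold therefore cannot be sized. In coagulation and fibrinolysis 11 of 27 genes rose and 9 fell. Anxa2, which assembles plasminogen on cell surfaces, rose 3.33-fold (not called with the mean of all its probe sets), while the anticoagulant Proc fell 3.39-fold. Of 21 adhesion genes 13 rose. Icam1 read 139, 122, 136, 116 and 133 in controls and 949, 1002, 1026, 810.5 and 1026 in allografts, and the hyaluronan receptor Cd44 rose 19.1-fold.

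**Figure D3:**
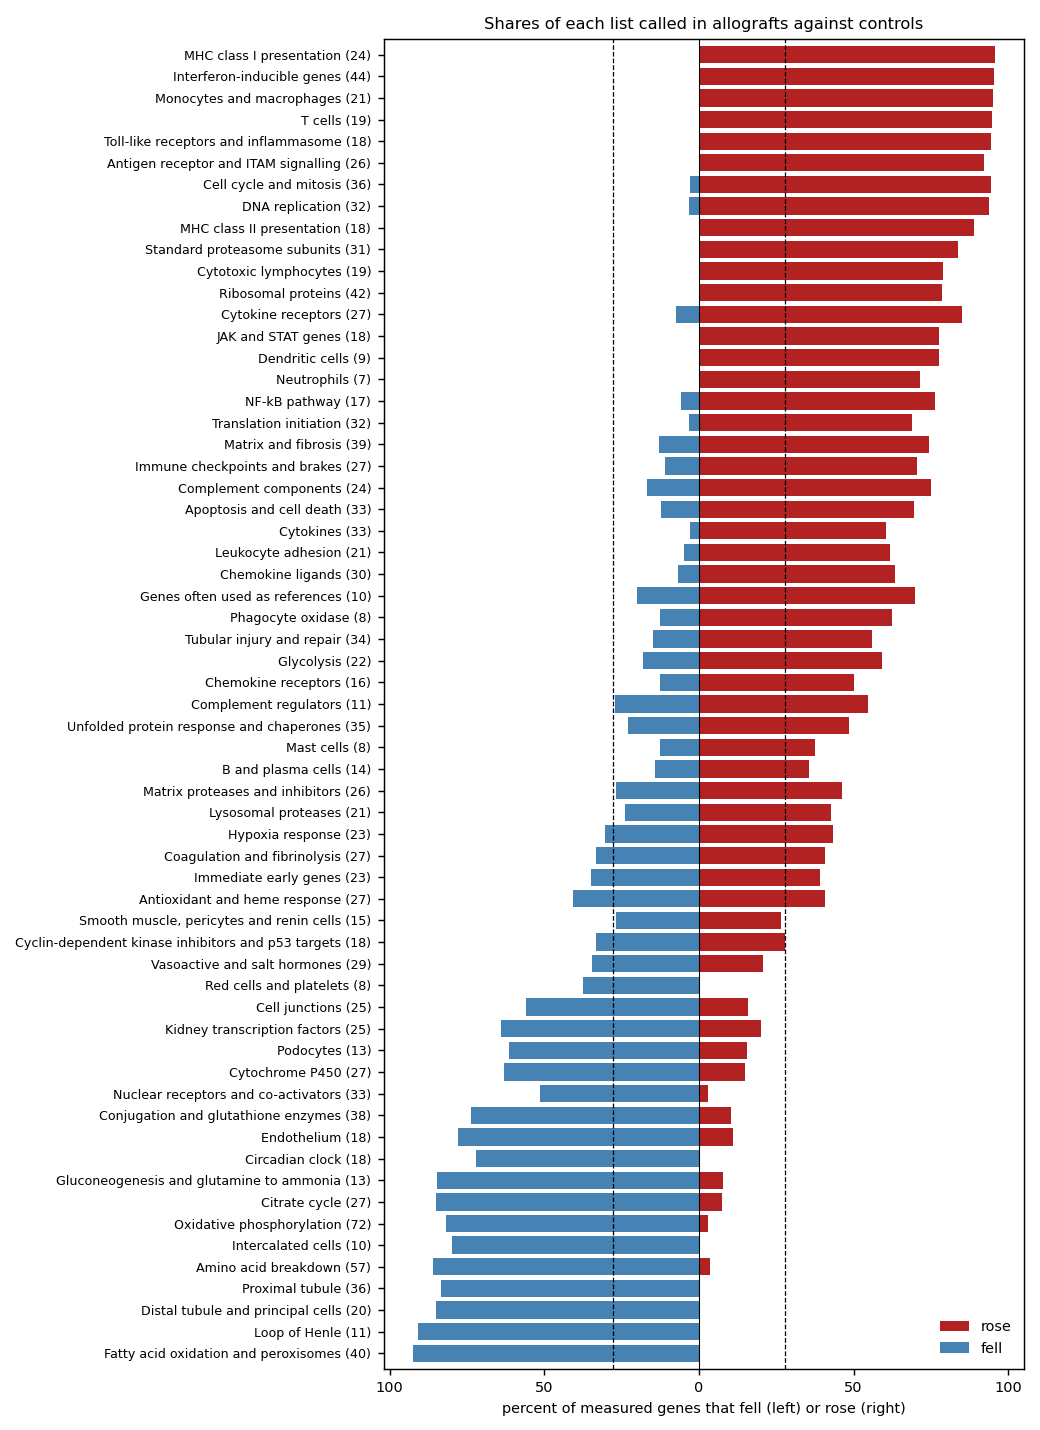
Share of the measured genes of each of 61 lists that rose (red) and fell (blue) in allografts against controls, in percent, with the number of measured genes in brackets. Dashed lines mark the 27.7% of all genes that rose and the 27.7% that fell. T cells, macrophages, interferon-inducible genes and the cell cycle lie almost wholly on the side of rises, the tubule lists and fatty acid oxidation on the side of falls, and other lists, such as coagulation, on both.

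Cell cycle genes rose in the allografts, but not in them alone. Of 36 genes of the cell cycle and mitosis 34 rose and 1 fell against controls, whereas 13 were higher and 1 lower against sTX. The list level was 2.53, 2.62, 2.66, 2.56 and 2.64 in allografts 1 to 5 and 2.62, 2.23, 2.15, 1.90 and 2.10 in sTX 1 to 5. Plk1, a kinase of mitosis, read 13.5, 12, 3.4, 3.6 and 15.3 in controls, 110.4, 73, 70.5, 58.7 and 64.8 in syngeneic grafts and 112, 123, 129, 117 and 131 in allografts. It rose 15.5-fold against controls, and against sTX the adjusted p was 0.11. Ccna2 and Aurkb rose 20.8-fold and 13.1-fold and were also above sTX, 2.16-fold and 2.29-fold. DNA replication genes gave 30 rises among 32, and 20 were higher than in sTX. Mcm3, a subunit of the replicative helicase, read 12.8, 15.3, 15.9, 16.4 and 16.8 in controls, 104, 80.8, 74.7, 65.2 and 77.7 in syngeneic grafts and 196, 221, 223, 207 and 208 in allografts. The 3 groups did not overlap, with aTX 2.65-fold above sTX (adjusted p = 9.2e-09). Cdt1 and Mcm6 rose 11.5-fold and 8.89-fold. The inhibitors of cyclin-dependent kinases and targets of p53 were close to the background, with 5 of 18 higher and 6 lower. Gadd45a fell 2.09-fold and Sesn1 2.37-fold. Gadd45g read 482 ± 117 in controls, 91.8 ± 18.2 in sTX and 216 ± 26.1 in aTX, so it fell against controls and was 2.37-fold above sTX.

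The 10 largest falls among genes whose geometric mean reached 200 in the controls were Klk1c4, Slc7a12, Cyp2c11, Klk1c9, Rbp4, Slco1a1, Gp2, Gc, Klk1 and Slco1a6. Klk1c4, a glandular kallikrein gene, read 515, 596, 528, 434 and 524 in controls and 8.2, 44.8, 40.5, 20.9 and 8.6 in allografts, so it fell by 4.74 ± 0.40 (adjusted p = 4.4e-09). Klk1, Klk1c4 and Klk1c9 belong to a family of close copies, so their probe sets may share transcripts. Cyp2c11, a steroid hydroxylase of male rats, read 964, 1003, 1346, 912 and 1217 in controls and 21.2, 109, 90.9, 76.7 and 47.9 in allografts. Allograft 1 had the lowest value of both genes. Slc7a12, an amino acid transporter, fell from 1182 ± 102 to 64.2 ± 36.5, and Gp2, a relative of uromodulin, from 584 ± 87.7 to 71.7 ± 33. Rbp4 and Gc, carriers of vitamins A and D, fell 8.91-fold and 8.52-fold, and Slco1a6, an organic anion carrier, 8.27-fold. All 10 were lower in aTX than in sTX as well, and in sTX each lay below its control mean.

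Markers fell in every segment of the nephron. Of 36 proximal tubule markers 30 fell and 0 rose, with a median of -0.96. Slc22a6, the organic anion carrier OAT1, read 1582, 1714, 1398, 1780.1 and 1728 in controls and 273, 395, 358, 450 and 370.4 in allografts, so it fell by 2.17 ± 0.12 (adjusted p = 1.1e-11). The urate and nicotinate carrier family member Slc22a13 fell 6.24-fold, Slco1a1 8.87-fold and the endocytic receptor Lrp2 from 2607 ± 363 to 702 ± 74.6. The other 6 were not called. Slc7a9, a subunit of the cystine carrier, was not called at 1339 ± 345 and 1281 ± 159.8, with an interval of -0.37 to 0.33 on the log2 scale, while its partner Slc3a1 fell 1.63-fold. Kap, an androgen-regulated gene of the rodent tubule, was not called at 5473 ± 747 and 4517 ± 681. Against sTX 30 markers were lower. The list level was -1.29, -0.98, -0.97, -0.89 and -0.93 in allografts 1 to 5, and allograft 1 was the lowest allograft in 25 of the 36 genes. Control 3 was the lowest control in 23 of 36, and without it 32 fell.

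In the loop of Henle 10 of 11 markers fell. Egf, made by the thick ascending limb, read 2336, 2246, 2388, 2637 and 2483 in controls and 317, 674, 698, 818 and 714 in allografts, so it fell by 1.98 ± 0.18 (adjusted p = 1.6e-08). Ppp1r1a fell 4.87-fold and the urea carrier Slc14a2 3.49-fold, and a further probe set of Slc14a2 was not called. In the distal tubule and principal cells 17 of 20 fell, with the kinase Sgk1 2.52-fold lower than in controls and at 1277 ± 41.2 in sTX against 1203 ± 270.4 in aTX (adjusted p = 0.56). Klk1 fell 8.37-fold, Tmem213 2.55-fold and the water channel Aqp2 2.08-fold. In intercalated cells, which secrete acid or base, 8 of 10 fell. Atp6v0a4, a subunit of their proton pump, read 1387, 1401, 1438, 1451 and 1545 in controls and 443, 497, 501, 537 and 481 in allografts, with little spread in either group. It fell by 1.56 ± 0.06 (adjusted p = 9.7e-14), and Atp6v1c2 and the anion exchanger Slc4a1 fell 3.51-fold and 4.11-fold. Carbonic anhydrase Car2 was not called at 1615 ± 106 and 1512 ± 127.

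The list levels of T cell, cytotoxic and macrophage markers were higher in all 5 allografts than in any control. Among the allografts, number 1 had the lowest T cell level (3.35) and the lowest proximal tubule level (-1.29). Allograft 4 had the highest of both, at 3.88 and -0.89. The summed signal of the 19 T cell markers was 262 to 364 in controls and 3054 to 4632 in allografts, and that of the 21 macrophage markers 3009 to 3880 and 21187 to 25519. The sums are compared only between groups, over the same probe sets. The defining Cd3d and Lck for T cells and Ms4a7 for macrophages were far above 0 in the allografts, with the values given above. The part of the added leukocyte RNA in the tubular falls was not tested.

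Vascular and glomerular markers fell as well. Of 18 endothelial genes 14 fell and 2 rose. Vwf, the gene of von Willebrand factor, read 243, 231, 223, 288 and 248 in controls and 36.8, 72.8, 70.9, 71 and 85.5 in allografts, so it fell by 1.92 ± 0.17 (adjusted p = 8.9e-09), with allograft 1 lowest. The transcription factor Sox17 fell 3.43-fold and Plvap, of the fenestrae of capillaries, 2.46-fold. A further probe set of Sox17 was not called. Ehd3, of the glomerular endothelium, was one of the 2 that rose, 1.62-fold, and lost its call with run and station as a block (0.32 on the log2 scale). Of 13 podocyte genes 8 fell and 2 rose, with Podxl 2.16-fold and Synpo 1.7-fold lower, although not every probe set of Podxl and Synpo was called. Ptpro, a phosphatase of podocytes that leukocytes also express, rose 1.45-fold. Smooth muscle and pericyte genes went both ways, 4 up and 4 down of 15. The contractile genes Smtn and Myh11 fell 2.89-fold and 2.78-fold (Myh11 was not called with the mean of all its probe sets), and Des, the desmin gene, rose 3.06-fold.

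**Figure D4:**
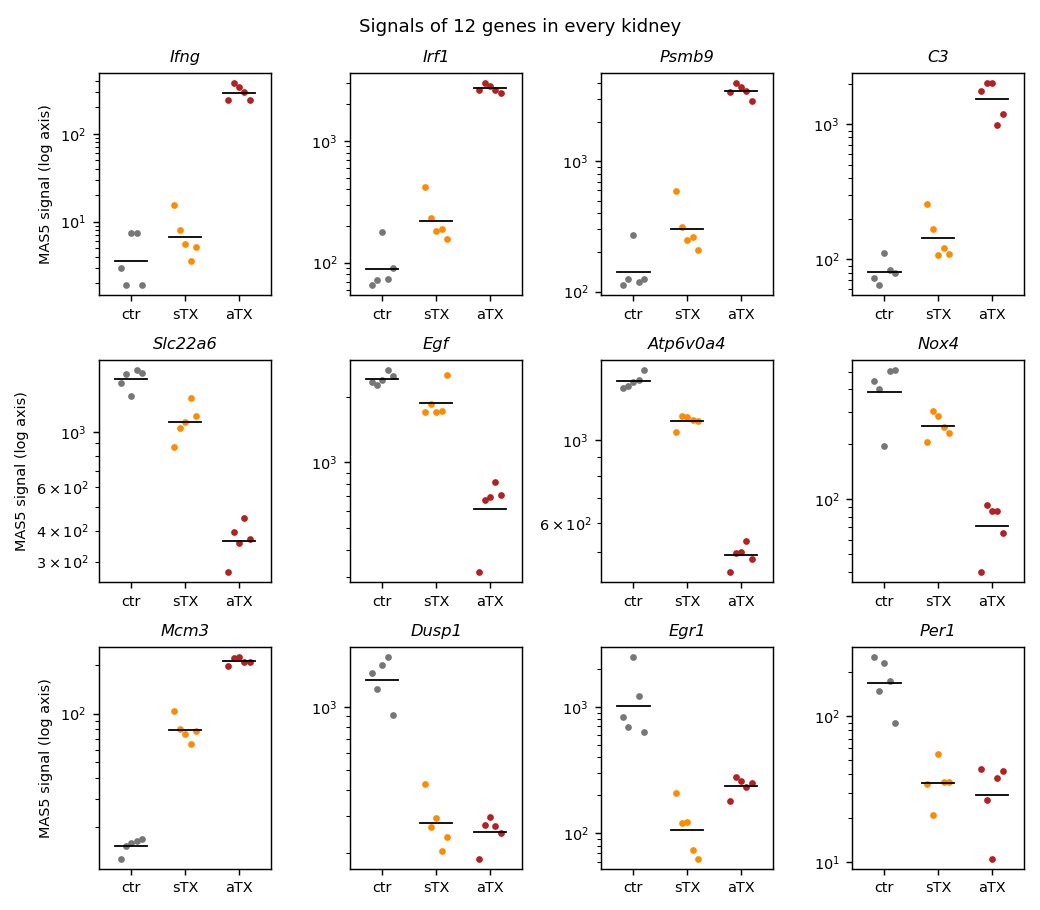
Signal of 12 genes in every kidney on a log axis, 1 point per kidney with a bar at the geometric mean, for controls (grey), syngeneic grafts (orange) and allografts (red). Ifng, Irf1, Psmb9 and C3 are high in the allografts, Slc22a6, Egf, Atp6v0a4 and Nox4 are low there, Mcm3 rises from controls over syngeneic grafts to allografts, and Dusp1, Egr1 and Per1 are low in both kinds of graft.

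Metabolic genes of the tubule fell together, with small changes in the respiratory chain and the citrate cycle list and larger ones elsewhere. Of 72 genes of oxidative phosphorylation 59 fell and 2 rose, with a median of -0.40. In 25 of them the whole interval lay within 0.5 of 0. Ndufa6, a subunit of complex I, read 1586, 1606, 1645, 1476 and 1735 in controls and 845, 709, 757, 896 and 929.5 in allografts, so the groups did not overlap and the gene fell by 0.97 ± 0.08 (adjusted p = 3.1e-09). Ndufv3 fell 2.02-fold, and for Atp5me 1 of 2 probe sets was called. The list level of the allografts was -0.48 to -0.37 and that of the controls -0.03 to 0.08. Of 27 citrate cycle genes 23 fell and 2 rose, with a median of -0.50. The genes named from this list were chosen for large changes. Pc, which feeds the cycle and gluconeogenesis, was 3.04-fold lower, Aco1 2.96-fold and Pdk2 2.62-fold.

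Of 40 genes of fatty acid oxidation and peroxisomes 37 fell and 0 rose, with a median of -0.93. Ehhadh, a peroxisomal enzyme, read 876 ± 62.5 in controls and 291 ± 44.8 in allografts, and Pex11a and Cpt1b fell 3.13-fold and 2.81-fold. Of 57 genes of amino acid breakdown 49 fell and 2 rose. Gnmt, which removes excess methionine as sarcosine, read 338, 413, 426, 237 and 352 in controls and 40.1, 52.7, 58.5, 63 and 60.2 in allografts, so it fell by 2.67 ± 0.15 (adjusted p = 1.1e-11), and Cth, which makes cysteine, fell 4.27-fold. In contrast Bcat1, the cytosolic aminotransferase of branched-chain amino acids found in activated leukocytes, read 4.8, 22.8, 39.4, 18.1 and 11.9 in controls and 492, 452, 469.8, 449 and 465 in allografts. It rose by 4.90 ± 0.38 (adjusted p = 1.2e-09), while the mitochondrial Bcat2 fell 1.91-fold. Gluconeogenesis and ammonia genesis gave 11 falls among 13, led by the glutamine carrier Slc38a3 (5.41-fold), Slc37a4 (3.34-fold) and Slc25a10 (3.2-fold).

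Glycolysis genes rose more often than they fell. Of 22 genes 13 rose and 4 fell. Pfkfb3, which sets the activator of phosphofructokinase, read 40.8, 54.4, 87.8, 41.9 and 55.7 in controls and 333, 303, 301, 314 and 357 in allografts, a rise of 2.57 ± 0.15 (adjusted p = 2.8e-11). A further probe set of Pfkfb3 was not called. The lactate exporter Slc16a3 rose 7.06-fold and Ldha 2.33-fold, and Hk2 rose from 9.86 ± 6.13 to 80.6 ± 12.1. Khk, the fructokinase of the proximal tubule, and Pklr, the liver and kidney pyruvate kinase, fell 4.37-fold and 3.63-fold. Aldoa, Gpi and Eno1 were not called, and Aldoa read 3442 ± 188 and 3515 ± 291. Of 23 genes of the hypoxia response 10 rose and 7 fell. Hif1a read 738, 819, 744, 1069.8 and 742 in controls and 1953, 2597, 2332, 2415 and 1979 in allografts, and of the hypoxia targets Hk2 and Pfkfb3 rose as given above, Vegfa and Ddit4 fell 2.62-fold and 3.0-fold and Car9 was not called at 8.42 ± 5.38 and 14.2 ± 4.17.

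Of 27 cytochrome P450 genes 17 fell and 4 rose. Cyp2e1 fell 3.52-fold, and Cyp1b1, which is found outside the tubule, rose 6.46-fold. Close copies in this family may share probe sets. Conjugating and glutathione enzymes gave 28 falls and 4 rises among 38, with Nat8 5.15-fold, Fmo4 3.92-fold and Fmo1 3.81-fold lower. Antioxidant and heme genes were even, 11 up and 11 down of 27 (7 and 7 with run and station as a block). Hmox1 rose 22.8-fold while Blvra, which acts after it on biliverdin, fell 2.31-fold. The mitochondrial Sod2 rose 2.58-fold and the cytosolic Sod1 fell 1.38-fold.

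Transcription factors of the kidney fell in part. Of 25 factors 16 fell, 10 with run and station as a block, and 5 rose. Klf9 fell 3.07-fold, Pax2 3.02-fold and Hnf4a, a regulator of proximal tubule genes, from 2006 ± 177 to 884 ± 85.3, while Klf6 rose 2.64-fold. For Klf9 a further probe set was not called. Of 33 nuclear receptors and co-activators 17 fell and 1 rose. Esrrb and Thra fell 2.98-fold and 2.73-fold, and Ppargc1a, the co-activator of mitochondrial genes, 1.92-fold. For Thra too a further probe set was not called. The glucocorticoid receptor Nr3c1 was not called at 218 ± 22.6 and 216 ± 14.1, with an interval of -0.16 to 0.15.

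Genes of the clock were lower in the allografts. Of 18 genes of the circadian clock 13 fell, 8 with run and station as a block, and 0 rose. Per1, a repressor of the clock, read 252, 148, 229, 174 and 89 in controls, 34.5, 21, 54.7, 35.6 and 35.4 in syngeneic grafts and 43.4, 26.5, 10.6, 37.6 and 41.9 in allografts. It fell by 2.55 ± 0.34 against controls (adjusted p = 3.2e-06) and did not pass against sTX (adjusted p = 0.59). Nr1d1 fell 4.99-fold and Usp2 3.8-fold, and both were below sTX as well. Dbp, a strong output of the clock, was not called at 135 ± 46.8 and 138 ± 9.38. The hour at which kidneys were taken is not stated in any source used here.

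Immediate early genes, which respond within minutes to handling and growth factors, ran both ways. Of 23 genes 9 rose and 8 fell. Fewer fell with run and station as a block, where control 5 is the only control compared. Without control 3 there were again 9 rises and 8 falls, with a median of 0.04 against -0.01 with it. Dusp1, a phosphatase of MAP kinases, read 1445, 1213, 1588, 1729 and 916 in controls, 428, 266, 295, 205 and 239 in syngeneic grafts and 188, 271, 298, 269 and 250.1 in allografts. Both kinds of graft lay below all controls, and aTX did not pass against sTX (adjusted p = 0.6). Egr1 read 822, 688, 2466, 1225 and 635 in controls, 207, 119.8, 122, 73.7 and 63.2 in syngeneic grafts and 179, 276, 258, 231 and 249 in allografts, so it fell by 2.11 ± 0.32 against controls (adjusted p = 1.3e-05) and was 2.2-fold above sTX (adjusted p = 0.007). The fall of Egr1 against controls lost its call with run and station as a block. There it was -1.32 on the log2 scale, against control 5 alone. Nr4a1 had the same order, at 618 ± 263, 55.9 ± 9.63 and 110.4 ± 18.8. Against sTX 18 of the 23 genes were higher in aTX and 0 lower. The list level was -0.06, -0.25, 0.62, 0.09 and -0.40 in controls 1 to 5, where control 3 was highest in 14 of 23 genes and control 5 lowest in 12, and -0.01, 0.07, 0.04, 0.10 and 0.17 in the allografts.

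Most matrix genes rose against controls, and more were below than above the syngeneic grafts. Of 39 matrix and fibrosis genes 29 rose and 5 fell against controls, while 23 were lower and 5 higher than in sTX. Col1a1 read 139, 144, 221, 154 and 144 in controls, 1115, 983, 797, 1028 and 1016 in syngeneic grafts and 1103, 522, 523, 493 and 636 in allografts. It rose 3.95-fold (adjusted p = 9.8e-09) and was 1.57-fold lower than in sTX (adjusted p = 0.0055). Lum, a proteoglycan that orders collagen fibrils, rose 5.19-fold. Tnc, a glycoprotein of injured and inflamed stroma, was above sTX, at 31.3 ± 2.8 in controls, 118 ± 25.6 in sTX and 219 ± 15.1 in aTX, and Vcan likewise at 29.5 ± 7.18, 36.5 ± 9.17 and 129 ± 53.1. A further probe set of Vcan was not called. Ccn2, a target of TGF beta and of mechanical stress, fell from 1738 ± 525 to 459 ± 148. Of 26 proteases and inhibitors 12 rose and 7 fell, with Timp1 18.5-fold and Adamts1 5.35-fold higher and the brush border protease Mep1b 6.01-fold lower.

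Genes of tubular injury and repair went mostly up, with 19 higher and 5 lower of 34. Havcr1, the injury marker KIM-1, read 8.4, 1.7, 33, 7.2 and 18.6 in controls, 1206, 1799.8, 1190.5, 599 and 326 in syngeneic grafts and 782, 475, 454, 229 and 518 in allografts. Both kinds of graft were far above the controls, and their difference did not pass (adjusted p = 0.24). Lcn2, which leukocytes also make, was 4.1-fold higher in aTX than in sTX, and Anxa3 rose 9.5-fold against controls. The keratins Krt8 and Krt18 were not called, at 397 ± 55 and 423 ± 76 for Krt8. Of 25 junction genes 14 fell (7 with run and station as a block) and 4 rose, with the connexins Gjb1 and Gjb2 4.85-fold and 2.26-fold and Cldn10 2.61-fold lower. Vasoactive and salt hormone genes were near the background, 6 up and 10 down of 29 (3 and 5 with run and station as a block). Agt, the gene of angiotensinogen, fell 3.9-fold, and the receptor gene Agtr1a fell 1.73-fold with overlapping groups.

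Of 42 ribosomal protein genes 33 rose, 21 with run and station as a block, with a median of 0.42, and Rps15a, Rpl12 and Rps24 rose 1.59-fold, 1.52-fold and 1.51-fold. Processed copies of these genes can share their probe sets. Of 32 genes of translation initiation 22 rose, with Eif4ebp1, a brake on cap-dependent translation, 5.11-fold, Eif1a 2.43-fold and Eif4a1 2.2-fold higher. Of 35 genes of the unfolded protein response and of chaperones 17 rose and 8 fell, with Sdf2l1 3.18-fold, Asns 2.49-fold and Pdia4 2.34-fold higher. Of 21 lysosomal genes 9 rose and 5 fell, and Ctsz and Ctss, cathepsins of antigen-presenting cells, rose 23.5-fold and 7.17-fold.

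Of 31 standard proteasome subunits 26 rose and 0 fell, with a median of 0.42. Psma5, of the outer ring of the core, read 489, 537, 556, 526 and 573 in controls and 1555, 1390.1, 1404, 1435 and 1439.7 in allografts, a rise of 1.43 ± 0.06 (adjusted p = 2.2e-13), and Psma4 and Psmd14 rose 2.38-fold and 2.15-fold. Psmb5, the standard catalytic subunit that Psmb8 replaces in the immunoproteasome, read 1237, 1212, 1309.6, 1294 and 1417 in controls and 1441, 1379, 1385, 1435 and 1494 in allografts. The groups overlapped, and the interval of its change was -0.01 to 0.30, while Psmb8 rose 30.3-fold. The 3 not called that are given here were chosen for their narrow intervals, and Psmb5 and Psmd2 passed the test with quantile normalization. Psmd2 and Psmd6, of the regulatory cap like Psmd14, had intervals of -0.04 to 0.26 and -0.04 to 0.25.

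Genes that are used as references were not all stable. Of 10 measured ones 7 rose and 2 fell (4 and 1 with run and station as a block). Actg1 read 3874, 3728, 3892, 4956 and 4438 in controls and 4022, 5609, 5137, 4899.8 and 3614 in allografts, with overlapping groups and an interval of -0.10 to 0.39. Ywhaz was called with an adjusted p of 0.037, but its interval of 0.04 to 0.30 lay within 0.5 of 0, and the call was lost without aTX 1, 2 or 5 or without control 1, 2, 3 or 4. Hprt1 rose 1.67-fold, Tbp 1.51-fold (but its change turned to -0.02 on the log2 scale with run and station as a block) and Gusb 2.42-fold.

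The 5 allografts were close to each other. Over the 14217 genes the median SD of log2 signals was 0.19 in allografts and 0.23 in controls, and over the 5970 genes whose mean signal reached 100 it was 0.12 and 0.14. No kidney held all extremes. Control 3 was the highest control in 31.9% of these 5970 genes and the lowest in 25.9%, and allograft 1 was the highest allograft in 25.3% and the lowest in 23.5%, while allograft 4 was the highest in 20.2% and the lowest in 25.5%. Allograft 1 had the lowest levels of proximal tubule markers and of gluconeogenesis genes, at -1.39, -1.04, -1.05, -1.0 and -1.06 in allografts 1 to 5. Matrix levels were 1.20, 0.87, 0.85, 0.72 and 0.84, with allograft 1 highest. Allograft 1 also had the lowest T cell level and the lowest cytotoxic level of the 5, the latter at 3.09, 3.44, 3.54, 3.60 and 3.65. In the lists of mast cells, smooth muscle, cyclin-dependent kinase inhibitors and p53 targets, immediate early genes and vasoactive genes the levels of allografts and controls overlapped. In none of the lists of T cells, macrophages, interferon-inducible genes, class I genes, proximal tubule, loop of Henle, fatty acid oxidation or amino acid breakdown did a single allograft reach the range of the controls.

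**Figure D5:**
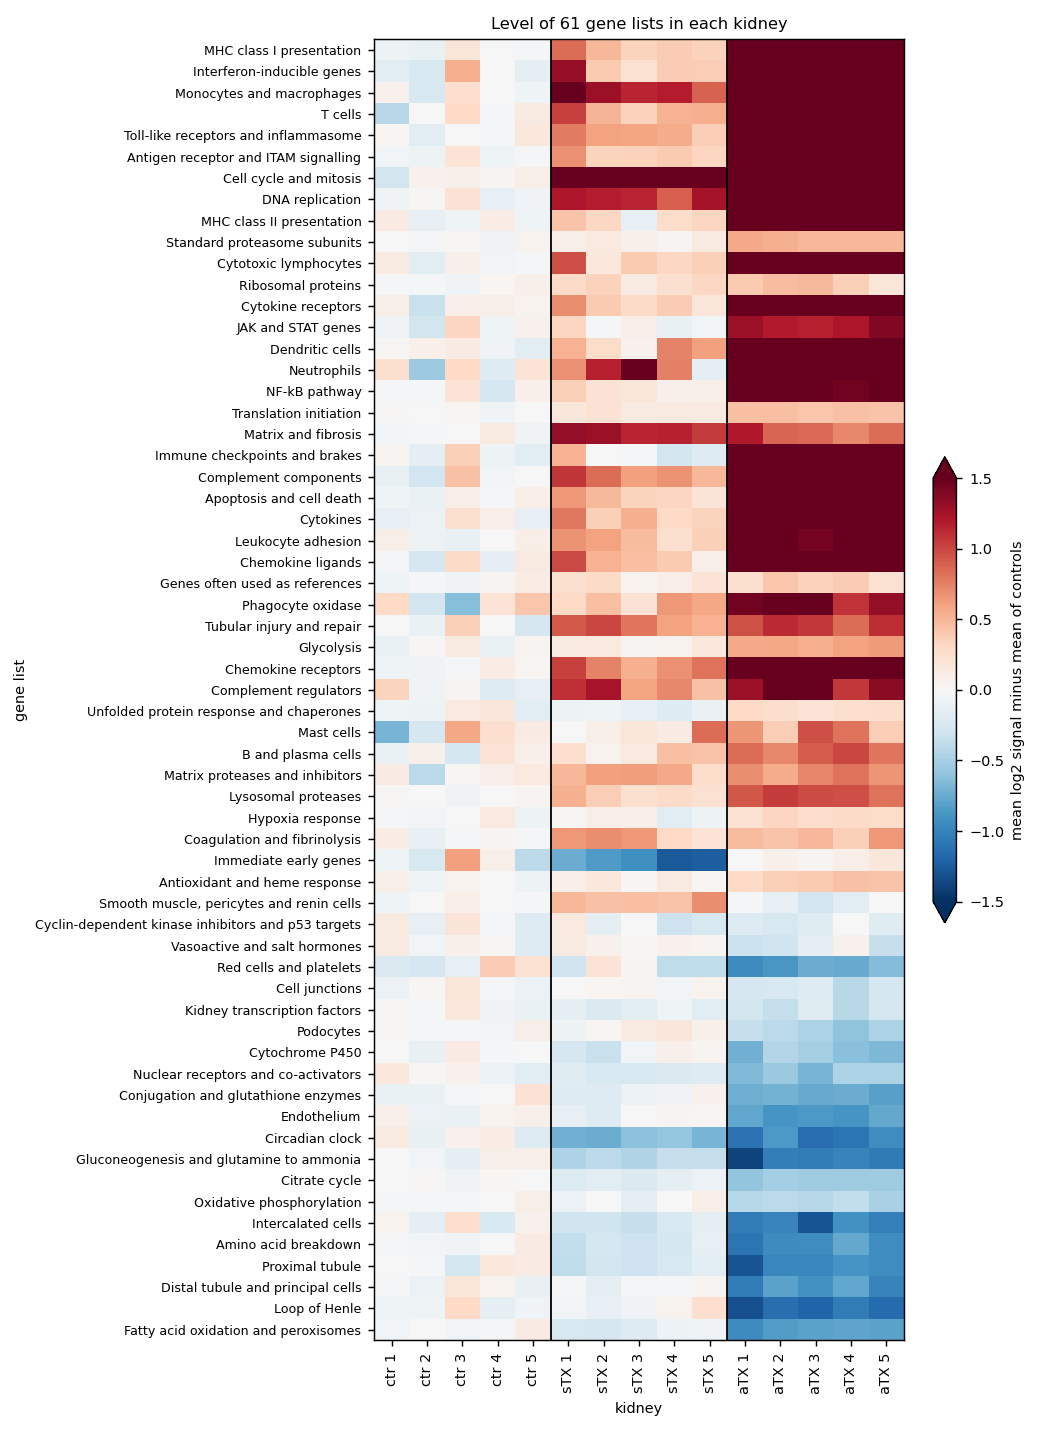
Level of all 61 lists in each of the 15 kidneys as colour: the mean log2 signal of the list minus the mean of the 5 controls, from -1.5 (blue) to 1.5 or more (red), with kidneys in columns and lists in rows. The 5 allograft columns look alike, but levels above 1.5 share 1 colour, which hides the spread among allografts in lists such as T cells. The third control differs from the other controls in interferon-inducible and immediate early genes.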

How the data were processed

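RNA of whole kidneys was measured on Affymetrix rat genome arrays, 1 array per kidney and 5 kidneys per group, without pooling. The deposited values are MAS5 signal intensities per probe set, made by the authors with GCOS and GeneData Refiner with masking of outliers, and scaled by them to a common level per array. The methods name another scaling target than the trimmed mean of 100 found on every array, so the absolute scale is uncertain. The deposited instrument records gave the station and a hybridization time for each array. Wash runs were inferred from these times, with a new run after any gap of more than 1 hour. MAS5 gives no depth, and the number of arrays limits the precision. The p-values measure the spread between these samples.

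Signals of 0 (54 values) were set to 0.05, and log2 signals of 31042 probe sets, all but 57 controls, entered 1 limma fit (version 3.58.1, R 4.3.3) with a mean for each of the 3 groups and an intensity trend. P-values were adjusted by Benjamini and Hochberg. Of the probe sets 20826 have 1 gene symbol, 436 several and 9780 none in the platform annotation, and those with several were not named. The fit was tested on simulated data. Members and lists were chosen with earlier results of these data known. The named genes are the 10 largest rises and falls and up to 3 called genes per list with a geometric mean of at least 200 and 100, and up to 3 unchanged reference and proteasome genes. Further list members are named with their values, and were chosen after these were seen. Promoters came from RefSeq, build GRCr8. The alternatives were other arrays, blocks, scalings, offsets, filters, thresholds and the methods' t-test.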

Additional observations from a re-analysis of the deposited data

Results flagged for a closer look

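Each gene and list level of the report was checked in each group of 5 kidneys by Dixon's criterion. Chance flags about 1 in 20 single sets of 5 values. The highest or lowest kidney stood apart in 48 of 508 such sets. The sets share the same kidneys and are not independent, so this count is not a test against chance. Of the 48, 18 were control 3 and 15 allograft 1. Values are signals, or for lists mean log2 levels relative to the controls, and the range of the other 4 kidneys of the group is given beside each.

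Control 3 was above the other controls for Anxa2 at 832 (others 534 to 594), Bcat2 at 498 (others 354 to 389.5), Cdt1 at 15.2 (others 9.4 to 10.4), Col1a1 at 221 (others 139 to 154) and Diablo at 331 (others 272 to 283). The same held for Gbp2 at 288 (others 66.5 to 86.2), Il1b at 45 (others 18 to 21.4), Isg15 at 131 (others 60 to 70), Mep1b at 1008 (others 813 to 864) and Psmb8 at 164 (others 57.7 to 68). The same held for Psmb9 at 270.5 (others 112 to 125), Rbp4 at 932 (others 527 to 604) and Ubd at 192 (others 15.8 to 22.4). It was below them for Agtr1a at 321 (others 511 to 543), Canx at 1274 (others 1484 to 1560.1), Cd28 at 1.3 (others 8.0 to 15.1), Nox4 at 195 (others 402 to 510.2) and Slc7a9 at 748 (others 1354 to 1628).

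Allograft 1 was above the other allografts for Clec10a at 434 (others 249.8 to 272) and Marchf1 at 376 (others 294 to 309). It was below them for Agt at 21.6 (others 41 to 51.4), Egf at 317 (others 674 to 818), Ehhadh at 213 (others 295 to 322), Fmo1 at 402 (others 588 to 672) and Gc at 46.4 (others 132 to 176). The same held for Gjb2 at 327 (others 471 to 487), Rbp4 at 32.2 (others 77 to 104), Slc38a3 at 43.8 (others 71.4 to 83.6), Slco1a1 at 36.5 (others 123 to 160) and Slco1a6 at 57.4 (others 177 to 262). The same held for Vwf at 36.8 (others 70.9 to 85.5), Proximal tubule at -1.29 (others -0.98 to -0.89) and Gluconeogenesis and glutamine to ammonia at -1.39 (others -1.06 to -1.0).

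Allograft 3 stood apart for Myh11 at 27 (others 44.7 to 48). Allograft 4 stood apart for Adamts1 at 312 (others 489 to 545) and Ifit1 at 0.60 (others 6.2 to 13.9). Allograft 5 stood apart for Tmem213 at 254 (others 306 to 328). Control 1 stood apart for Aco1 at 1165 (others 1258 to 1268) and Cell cycle and mitosis at -0.27 (others 0.05 to 0.09). Control 2 stood apart for Socs3 at 14.2 (others 19.9 to 22.7). Control 4 stood apart for Eif4a1 at 845 (others 936 to 968), Hif1a at 1069.8 (others 738 to 819), Klk1 at 1722 (others 2241 to 2348) and Matrix and fibrosis at 0.13 (others -0.05 to -0.01). Control 5 stood apart for Ackr3 at 226 (others 296 to 326), Aurkb at 8.0 (others 13.2 to 15.8), Gpi at 1751 (others 1654 to 1666) and Oxidative phosphorylation at 0.083 (others -0.03 to -0.01).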

How the results depend on the processing

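Of all probe sets, 6268 rose and 6890 fell. Leaving out 1 of the 10 arrays gave 5907 to 6207 higher and 6419 to 6685 lower, and 4164 to 4420 unchanged against 4535. Counts moved by over 1.5 times with wash run and station as a block, an alternative chosen after seeing the data, to 3862 higher, 4032 lower and 1843 unchanged, and with the methods' t-test at an unadjusted p below 0.001, to 3894 higher and 3808 lower. The number of unchanged probe sets was 12441 with an interval within 1 of 0, 1329 within 0.3, and 16747 with an offset of 16, which shrinks the changes of low signals. Median scaling gave 5547 higher and 7661 lower, and the median change over all probe sets was -0.07 and then -0.15. With the replicate block, the title number as a block, 5902 were higher, 6347 lower and 4152 unchanged. The correlation of same-numbered deviations was -0.019 to 0.006, and -0.070 to 0.007 once weak signals, with means under 100, were left out. Low correlations with 5 kidneys per group cannot tell whether a graft and a control came from 1 rat. Whether the numbers pair the samples therefore stays unknown. Of the 243 genes of the report, the direction of a called change turned for Tbp (-0.015 with run and station as a block) and Masp2 (0.0069 with the mean of all probe sets), and the causes were not tested. Cd4, Egr1, Ehd3, Masp2 and Ywhaz kept direction but not the threshold with run and station as a block. Genes given as not called passed without single arrays: Kap (-0.32 on the log2 scale), Nfkbia (0.25) and Krt18 (0.36) without control 3, Kap without aTX 2 (-0.35) or control 2 (-0.32), Nfkbia without control 1 (0.28), and Cd28 without control 4 (1.47) or 5 (1.43). Quantile normalization added calls of Canx, Eno1, Kap, Nfkbia, Psmb5 and Psmd2, and run and station as a block those of Krt18 and Nfkbia. The mean of all probe sets of a gene lost Anxa2, Atp5me, Casp9, Myh11 and Ywhaz and added Kap, Nfkbia and Psmb5, and the methods' t-test at an unadjusted p below 0.001 lost Agtr1a, B2m, Cd4, Ehd3, Masp2, Tbp and Ywhaz. Of the 122 counts of lists, higher or lower, 2 to 10 moved by over 1.5 times on leaving out 1 array and 34 with run and station as a block, of which 7 were counts of 10 or more (antioxidant genes both ways, ribosomal rises, and falls of kidney transcription factors, clock, vasoactive and junction genes). Weak signals limit the folds of genes that start near background.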
